A study of Mus musculus with 5 samples.

Results

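The adrenoceptor genes described here are Adra1a, Adra1b, Adra1d, Adra2a, Adra2b, Adra2c, Adrb1 and Adrb3, 8 of the 32285 genes counted in each of 2 single-nuclei RNA sequencing (snRNAseq) matrices of mouse interscapular brown adipose tissue (iBAT). They were chosen by symbol and not by a rule on measured values, though with earlier results of these data known. Each of the 8 is listed in both matrices. The first matrix pools 2 libraries from mice aged 3 months, a littermate control (WT) and a Ucp1-STX4KO mouse group (UCP1-STX4KO in the labels), in which floxed STX4 was deleted by a Cre driven from the Ucp1 promoter and hence in cells that have used that promoter. The second pools 3 libraries from C57BL/6J mice, Young adult at 2 months, Middle age at 12 months and Old at 24 months. Each condition is 1 library of sorted nuclei, the methods give 4 male mice with no split among libraries, and no label ties the number that ends a barcode to a condition. Genotypes and ages were therefore not compared, libraries are called by that barcode suffix, and all values are descriptions without a replicate check.

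Sympathetic nerves release noradrenaline onto brown fat, where adrenoceptors on the receiving cell set the response. The beta subtypes (Adrb genes) act mainly through Gs and cAMP, the alpha-1 subtypes (Adra1 genes) through Gq and calcium, and the alpha-2 subtypes (Adra2 genes) through Gi, which lowers cAMP. In rodent brown adipocytes the beta-3 receptor is best known for starting lipolysis and heat production, whereas alpha-1 receptors are best known for constricting blood vessels.

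Nuclei were assigned to cell types by fixed marker lists that hold none of the 8 genes, and 18822 of 20307 nuclei of the WT and Ucp1-STX4KO matrix and 22343 of 27842 filtered nuclei of the aging matrix received a type (gated nuclei). The labels call the samples brown adipocytes, and adipocyte nuclei (Adipoq, Plin1, Pparg and 5 further markers) made up 78.0% of the typed nuclei in the first matrix but 10.3% in the aging matrix, where 61.6% were endothelial and 17.7% mural (pericytes and vascular smooth muscle). All markers of every reported type were raised in it, and skeletal muscle nuclei, 349 in all, were found in the first matrix alone. Median UMIs per barcode (unique molecular identifiers, 1 for each captured RNA molecule) ranged from 891 to 5998 among the 5 libraries, and suffix 1 of the first matrix stands apart in having no barcode under 2053 UMIs. Barcode sequences seen in more than 1 library made up 0.113% and 0.331% of those in the 2 matrices. Levels are UMIs of a gene per 1000000 UMIs of the nuclei summed (CPM), with exact Poisson 95% intervals, and CPM ratios have exact binomial 95% intervals. Both cover counting error only. The targeted gene, Stx4a, was at 60.0 CPM (58.2 to 61.8) in adipocyte nuclei with suffix 1 and 49.3 CPM (46.7 to 52.0) with suffix 2 of the first matrix, and this was not used to name either library.

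Adrb3, which encodes the beta-3 receptor, was highest in adipocyte nuclei in all 5 libraries. Its level there was 400.3 CPM with suffix 1 and 745 CPM with suffix 2 of the WT and Ucp1-STX4KO matrix, from 29001 and 20596 UMIs. In the aging matrix it was 248, 267 and 443 CPM with suffixes 1, 2 and 3, from 784, 622 and 458 UMIs. Adipocyte nuclei thus carried more Adrb3 per UMI in suffix 2 than in suffix 1 of the first matrix, and the aging libraries spanned a lower range that reached the suffix 1 value in suffix 3. Outside adipocytes the gene stood between 94.6 and 363 CPM in types of at least 50 nuclei of the first matrix, and at no more than 40.8 CPM in those of the aging matrix. The CPM ratio of adipocyte to all other typed nuclei was 3.28 (3.13 to 3.43) in the first matrix and 21.2 (19.3 to 23.4) in the aging matrix. Taken library by library, it was 2.19 and 5.34, and 26.5, 14.6 and 34.8 for the aging suffixes. The gene, on chromosome 8 from 27225776 to 27250616 on the minus strand (GRCm38), overlaps the antisense gene Gm45470, which had 3614 UMIs in the first matrix and is counted separately, since Cell Ranger assigns reads by strand.

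Adra1a, the alpha-1A receptor gene on chromosome 14 (66635251 to 66771168, plus strand), gave the most UMIs of the 8 genes in both matrices. Adipocyte nuclei held it at 1707 CPM with suffix 1 (123671 UMIs) and 374 CPM with suffix 2 (10332 UMIs) of that matrix. The aging libraries held it at 1206, 712 and 903 CPM with suffixes 1, 2 and 3. The intervals of these 5 values do not overlap, and suffix 2 of the first matrix was the lowest while being the highest for Adrb3. A typical adipocyte nucleus had a median of 10 Adra1a UMIs and 2 Adrb3 UMIs with suffix 1, against 1 and 3 with suffix 2. The pooled CPM ratio of adipocyte to other nuclei was 6.03 (5.82 to 6.26) in the first matrix, above the 3.07 and 3.78 of its libraries, which differ both in level and in their mix of cell types. In the aging matrix it was 21.7 (20.6 to 22.8), with 14.2, 18.2 and 32.7 in the libraries.

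Adrb1, the beta-1 receptor gene on chromosome 19 (56722199 to 56733113, plus strand), followed another pattern, with its highest levels shared by adipocyte and mural nuclei. In the first matrix mural nuclei had 85.6 CPM with suffix 1 and 62.9 with suffix 2, against 58.3 and 43.0 CPM in adipocyte nuclei. In the aging matrix mural nuclei had 42.4, 99.3 and 43.4 CPM with suffixes 1, 2 and 3, and adipocyte nuclei had 52.8, 72.6 and 42.5 CPM. The mural level exceeded the adipocyte level in both libraries of the first matrix, at 147% (115 to 185%) and 146% (108 to 194%) of it, and in suffix 2 of the aging matrix, at 137% (111 to 170%). It was lower in suffix 1 of the aging matrix, at 80.2% (65.2 to 98.9%), and not told apart in suffix 3, at 102% (71.4 to 148%). Pooled, it was 138% (115 to 165%) of the adipocyte level in the first matrix and 92.9% (81.2 to 106%) in the aging matrix. No other type with at least 50 nuclei passed 35.8 CPM in any library. Against all other typed nuclei the ratio of mural nuclei was 1.49 (1.24 to 1.78) in the first matrix and 3.76 (3.32 to 4.25) in the aging matrix, where the libraries gave 1.90, 4.61 and 7.95. The ratio of adipocyte nuclei was 2.20 (1.97 to 2.47) and 3.53 (3.10 to 4.01).

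**Figure D1:**
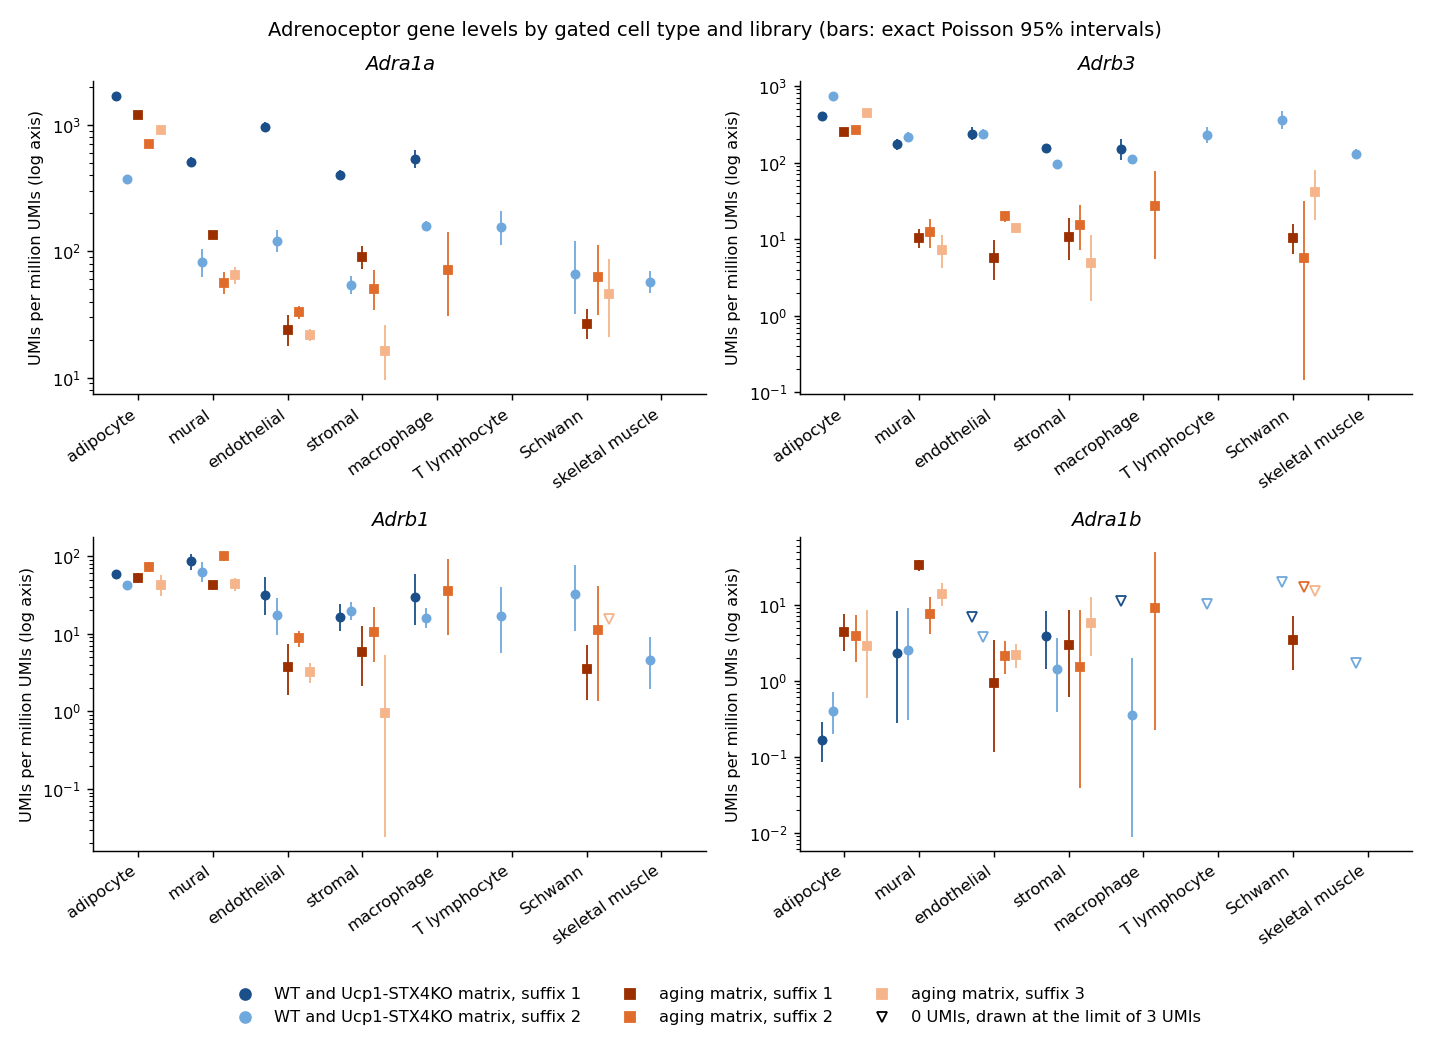
Levels of Adra1a, Adrb3, Adrb1 and Adra1b by cell type, in CPM on a log axis, for each library with at least 50 nuclei of the type. Bars are exact Poisson 95% intervals and open triangles mark 0 UMIs at the level 3 UMIs would give. Adrb3 peaks in adipocyte nuclei of every library (248 to 745 CPM), Adrb1 in adipocyte and mural nuclei alike, and Adra1b stands at 7.44 to 32.9 CPM in mural nuclei of the aging libraries.

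Adra1b, the alpha-1B receptor gene on chromosome 11 (43774606 to 43901210, minus strand), was mainly mural in the aging matrix. There 212 of its 309 UMIs in typed nuclei fell in mural nuclei, at 32.9, 7.44 and 13.8 CPM with suffixes 1, 2 and 3. Adipocyte nuclei of the same libraries had 4.43, 3.87 and 2.90 CPM, so the mural level was higher in each. With suffix 2 this rests on 14 mural and 9 adipocyte UMIs, and the intervals of those levels overlap. A single macrophage UMI, at 8.96 CPM with suffix 2, was the only value above the mural one of its library among types with at least 50 nuclei there. The mural ratio was 8.80 (6.89 to 11.3) over the matrix and 10.7, 3.09 and 5.66 in the libraries. The first matrix held 38 UMIs of the gene, with 4 in mural and 10 in stromal nuclei, whose ratios of 7.86 (2.03 to 22.1) and 8.83 rest on those few molecules.

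Promoter sequence is shown for Adrb1 and Adra1b, which are among the receptor genes whose mural levels set them apart from Adrb3. Adra2b, with 23 of its 29 UMIs in typed aging-matrix nuclei in mural nuclei, is not shown. Each sequence covers the 250 bases before a RefSeq start (GRCm38.p6), written 5′ to 3′ with the motifs CCAAT and GGGCGG in capitals, on either strand. The motifs do not overlap here. Adra1b has 2 listed starts, the upstream one given first.
Adrb1, chr19:56721867-56722116, plus strand: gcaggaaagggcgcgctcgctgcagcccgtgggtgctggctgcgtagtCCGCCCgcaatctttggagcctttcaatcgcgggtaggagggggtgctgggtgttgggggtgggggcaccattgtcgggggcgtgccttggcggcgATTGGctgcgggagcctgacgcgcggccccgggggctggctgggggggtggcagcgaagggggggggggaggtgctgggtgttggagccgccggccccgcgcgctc
Adra1b, chr11:43901238-43901487, minus strand: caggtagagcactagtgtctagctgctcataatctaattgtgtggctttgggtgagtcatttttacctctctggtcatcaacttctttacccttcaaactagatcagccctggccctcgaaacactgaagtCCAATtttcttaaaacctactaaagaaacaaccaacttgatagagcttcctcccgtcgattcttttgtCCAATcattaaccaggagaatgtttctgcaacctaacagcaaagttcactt
Adra1b, chr11:43836490-43836739, minus strand: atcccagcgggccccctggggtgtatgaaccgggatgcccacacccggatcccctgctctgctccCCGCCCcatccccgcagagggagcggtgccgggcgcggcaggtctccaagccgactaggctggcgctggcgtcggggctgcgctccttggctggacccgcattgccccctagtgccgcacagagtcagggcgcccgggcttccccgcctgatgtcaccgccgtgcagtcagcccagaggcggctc

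GGGCGG occurs in the Adrb1 sequence and in that of the downstream Adra1b start, and in 32.7% of the 32851 mouse promoter windows of this length in the table. CCAAT occurs in the Adrb1 sequence and in the upstream Adra1b one, and in 33.8% of windows. The upstream Adra1b window is 41.6% G or C, against 72.8% for the downstream one and 74.0% for Adrb1. The CArG box, a motif of smooth muscle genes, is in none of the 3 and in 1.47% of all windows. The table matched 5 of the 8 receptor genes.

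Adra1d, the alpha-1D receptor gene on chromosome 2 (131545850 to 131562283, minus strand), was low in every type. It overlaps Gm14285 on the opposite strand, which had 91 UMIs in the first matrix. In adipocyte nuclei it was at 9.55 and 0.977 CPM with suffixes 1 and 2 of the first matrix, a gap in the same direction as that of Adra1a, and at 11.4, 4.72 and 9.66 CPM in the aging libraries. Its adipocyte ratio was 3.54 (2.41 to 5.41) in the first matrix, though only 1.71 and 1.36 within its libraries, and 6.22 (4.23 to 9.14) in the aging matrix. Mural nuclei of the aging matrix had 45 of the 114 UMIs, at 3.83, 5.31 and 6.31 CPM.

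The 3 alpha-2 receptor genes were barely captured. Adra2a had 3 UMIs in typed nuclei of the first matrix and 8 in the aging matrix, Adra2b 3 and 29, and Adra2c 2 and 28. Adipocyte nuclei of the aging matrix had 0 UMIs of all 3, which allows at most 0.460 CPM for each, and those of the first matrix had 3, 2 and 1 among 100083704 UMIs. Of the aging matrix's Adra2b UMIs, 23 of 29 were in mural nuclei (18, 2 and 3 by suffix), giving a ratio of 15.4 (6.11 to 46.3). Adra2c UMIs lay mostly in endothelial nuclei (23 of 28), none of them with suffix 1, 12 with suffix 2 and 11 with suffix 3, and stromal nuclei held 3 more. Endothelial nuclei held 54.2% of all UMIs in typed nuclei of that matrix, and suffix 1 had only 1 Adra2c UMI in typed nuclei. Each of these genes is a single exon on the plus strand, Adra2a on chromosome 19 (54044151 to 54048982), Adra2b on chromosome 2 (127363208 to 127367221) and Adra2c on chromosome 5 (35278319 to 35281763), and they span 3.45 to 4.83 kb.

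**Figure D2:**
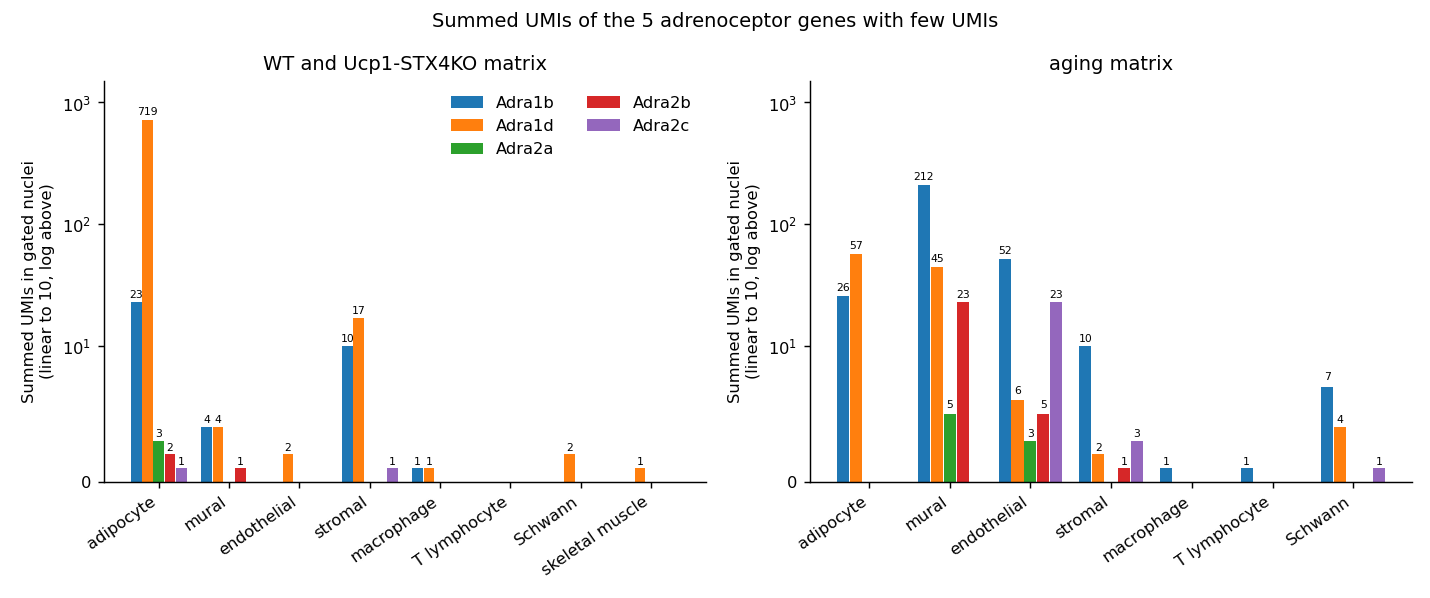
Summed UMIs in typed nuclei of the 5 genes with few molecules, for each matrix, on an axis linear to 10 and logarithmic above. Adra1b (212) and Adra2b (23) have most of their aging-matrix UMIs in mural nuclei, Adra2c (23) in endothelial nuclei, and Adra1d (719) in adipocyte nuclei of the first matrix. In that order, these types held 19.9, 54.2 and 88.3% of all UMIs in typed nuclei of their matrix.

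A gene was called higher in a cell type where its CPM ratio to all other typed nuclei reached 2 over the matrix and also within each library that held 50 or more nuclei of that type, among genes with at least 20 UMIs in typed nuclei. In the first matrix 5 of the 8 receptor genes had that many UMIs, and 2 of these, Adra1a and Adrb3, were called higher in adipocyte nuclei, where 5.8% of the 18162 genes were. None of the 5 was called lower there (ratio of at most 0.5), against 22.6% of genes. Adra1b was called higher in mural nuclei (10.0% of genes) and in stromal nuclei (11.9%). Of the 7 receptor genes with enough UMIs in the aging matrix, 4 were called higher in adipocyte nuclei (Adra1a, Adra1d, Adrb1 and Adrb3), beside 10.5% of the 17906 genes. Adra2b and Adra2c were called lower there (10.9% of genes) because adipocyte nuclei held none of their few UMIs, and Adra1b and Adra2b were called higher in mural nuclei (5.96%). Ranked by pooled adipocyte ratio, Adra1a and Adrb3 stood 95th and 102nd of 17906 in the aging matrix but 285th and 1052nd of 18162 in the first. The nuclei set against adipocytes differ in their mix of types between the matrices, so these ranks are not on a common scale.

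Nuclei outside the adipocyte class also carried UMIs of adipocyte genes, and these levels are given beside those of the receptor genes. The 7 genes of the brown adipocyte list (Ucp1, Cidea, Dio2, Ppargc1a, Prdm16, Kcnk3 and Cox8b) had, in the other types of the first matrix, a median of 18.8 to 58.7% of their adipocyte level. Adra1a, pooled over the matrix, stood at 4.95 to 36.2% of its own adipocyte level in those types, under the list's median in each. Within suffix 2 it was above the median in macrophage nuclei (42.6%, against 17.0%) and T lymphocyte nuclei (41.3%, against 26.5%). Adrb3 was at 23.3 to 70.8% over the matrix, and its values in mural (39.1%), endothelial (47.8%) and stromal (23.3%) nuclei lay within the list's range. In the aging matrix the list's medians were lower, between 4.61 and 20.1%. Adrb3 there was at 3.34 to 7.89% and Adra1a at 2.62 to 10.2%, with the top value in mural nuclei, where the list's median was 8.27%. In those mural nuclei Ucp1 and Cidea were at 4.90 and 5.91%, and Kcnk3 and Prdm16 at 19.7 and 27.6%. Adrb1 was at or near its adipocyte level in mural nuclei of both matrices, above the highest gene of the list (84.3% and 27.6%), and at 8.74% in endothelial nuclei of the aging matrix. The genes of the list differed widely within a type. In skeletal muscle nuclei of the first matrix Ppargc1a was at 87.2% and Ucp1 at 18.8%. In Schwann nuclei of the aging matrix Prdm16 was at 74.3% and Ucp1 at 4.38%. The list's median is therefore no measure of free RNA, whose part in the levels outside adipocytes was not tested.

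**Figure D3:**
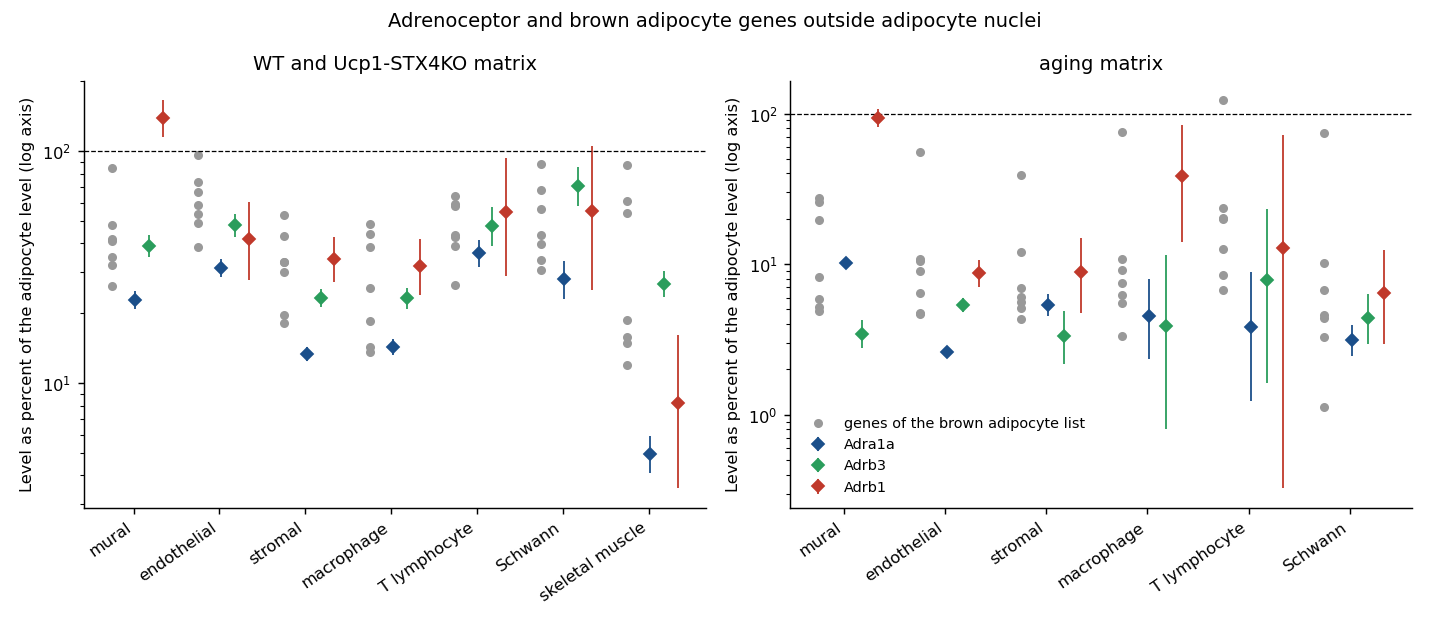
Level of Adra1a, Adrb3 and Adrb1 in each other cell type as a percent of the adipocyte level (log axis), with exact 95% intervals, beside the genes of the brown adipocyte list (grey; genes with 0 UMIs are not drawn). Adrb1 in mural nuclei sits near the dashed line at 100% (138% and 92.9%), above all 7 list genes of that type.

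The proportions of the receptor genes to one another were compared between types of the same library. In adipocyte nuclei Adra1a had 4.26 UMIs for each Adrb3 UMI with suffix 1 of the first matrix and 0.502 with suffix 2. Endothelial nuclei had 4.03 (3.25 to 5.04) and 0.513 (0.398 to 0.659), intervals that include the adipocyte values. In the aging matrix endothelial nuclei had 4.25 (2.24 to 8.76) with suffix 1, which includes the adipocyte 4.87, and 1.67 (1.37 to 2.03) and 1.56 (1.30 to 1.86) with suffixes 2 and 3, below the adipocyte 2.67 and 2.04, although with suffix 3 the intervals overlapped (1.82 to 2.29 in adipocytes). Mural nuclei of the aging matrix had 13.2 (9.89 to 17.9), 4.61 (2.92 to 7.58) and 9.11 (5.59 to 15.8) Adra1a UMIs per Adrb3 UMI, against 4.87, 2.67 and 2.04 in adipocytes, and the intervals of the pair of values overlapped only with suffix 2. In mural nuclei of the first matrix the ratio was 2.94 (2.44 to 3.56) and 0.378 (0.280 to 0.505), below that of adipocytes with suffix 1 and at the edge of its interval with suffix 2. Adrb1 had more UMIs per Adrb3 UMI in mural than in adipocyte nuclei of all 5 libraries, 0.493 against 0.146 and 0.291 against 0.0577 for suffixes 1 and 2 of the WT and Ucp1-STX4KO matrix. For the aging suffixes the values were 4.12 against 0.213, 8.13 against 0.272 and 6.11 against 0.0961.

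Adipocyte nuclei with UMIs of both Adra1a and Adrb3 were counted. These joint shares were not set against those that the separate share of each gene would give, so they do not speak to joint expression. At least 1 UMI of each was present in 84.1% of the 10340 adipocyte nuclei with suffix 1 and in 52.8% of the 4343 with suffix 2 of the first matrix. In the aging libraries both were present in 41.7, 26.1 and 44.9% of adipocyte nuclei. Nuclei with Adrb3 and no Adra1a UMI made up 0.658% with suffix 1 and 32.7% with suffix 2 of the first matrix, the widest gap among these classes, and 5.71 to 11.1% in the aging libraries. Such shares move with depth, and after thinning each nucleus to 1000 UMIs the share of adipocyte nuclei with Adra1a went from 88.2 to 62.6% in the first matrix and from 75.7 to 55.4% in the aging matrix. For Adrb3 it went from 85.0 to 36.3% and from 43.5 to 23.1%. As a background, 2.14% of thinned endothelial nuclei of the aging matrix had an Adra1a UMI and 1.43% an Adrb3 UMI, but 15.6% and 17.5% in the first matrix. Adrb1 was in 4.63% of thinned mural nuclei, 5.64% of thinned adipocyte nuclei and 0.569% of thinned endothelial nuclei of the aging matrix, whose median depths before thinning were 1947, 2215 and 1626 UMIs.

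Per kilobase of gene span the order of the pooled adipocyte levels was Adrb3, Adra1a, Adrb1, Adra1d in both matrices, at 19.9, 9.85, 4.95 and 0.437 CPM per kb in the first and 11.5, 7.23, 5.34 and 0.532 in the aging matrix. Adrb3 came first in each of the 5 libraries, at 9.98 to 30.01 CPM per kb. Adrb1 was above Adra1a in suffix 2 of the first matrix (3.94 against 2.75 CPM per kb) and in suffix 2 of the aging matrix (6.65 against 5.24), and below it in the other libraries. The genes span 136 kb (Adra1a) and 24.8 kb (Adrb3), and without division by span Adra1a was above Adrb3 in 4 libraries and below it in suffix 2 of the first matrix. Whether intronic reads were counted is not given in the sources used here, and the assay primes at poly(A), so neither scale counts molecules evenly between genes.

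Adipocyte nuclei were next ranked within each library by the share of their UMIs in a fixed list, and the top 10% was set against the rest, using nuclei of at least 1000 UMIs. No receptor gene is in the lists. In the 10% with the most white-type UMIs (Cyp2e1, Aldh1a1, Retn, Nnat and Lep) of suffix 2, first matrix, Adrb3 was at 1276 CPM against 683 in the rest, a ratio of 1.87 (1.80 to 1.94), while Adra1a was at 135 against 402 CPM, a ratio of 0.335 (0.302 to 0.371). Ucp1 was at 0.161 of its level in the rest in those nuclei. Suffix 1 of the aging matrix showed the same directions, with 2.03 (1.69 to 2.43) for Adrb3 and 0.645 (0.568 to 0.730) for Adra1a. They were weaker with suffix 1 of the first matrix (1.21 and 0.919), and intervals of both genes included 1 with suffix 2 of the aging matrix, where 7 of the 102 top nuclei held no UMI of the list. The brown list gave the opposite direction for Adra1a, whose ratio was above 1 in all 4 libraries ranked, from 1.03 (1.01 to 1.05) to 1.73 (1.56 to 1.92). Adrb3 in the same nuclei was at 0.939 (0.900 to 0.979) and 0.548 (0.519 to 0.578) with suffixes 1 and 2 of the first matrix, and at 1.09 (0.813 to 1.44) and 1.42 (1.12 to 1.78) with those of the aging matrix, so its direction differed between libraries.

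In nuclei with the most lipogenic UMIs (Acly, Fasn, Acaca, Elovl6 and Me1) Adrb3 was higher than in the rest in all 4 libraries, with ratios of 1.18, 1.083, 1.98 and 2.30 and no interval that reached 1. Adra1a was lower in 3 of them, at 0.849, 0.589 and 0.588, and at 1.02 (0.871 to 1.18) with suffix 2 of the aging matrix. Nuclei with the most glycolytic and hypoxia-type UMIs gave no shared direction for Adra1a, which ranged from 0.951 to 1.69, or for Adrb3, from 0.662 to 1.65. The lists cut a range and not a cell type, and 400 nuclei of suffix 1 and 123 of suffix 2 lay within 10% of the white-type limit in the first matrix. For the brown list 1271 and 330 nuclei did, beside top groups of 1034 and 426 nuclei. Median depths in the top and remaining nuclei of the white-type split were 4694 and 6404 UMIs with suffix 1 and 5979.5 and 5349 with suffix 2 of the first matrix, and the part of depth in these ratios was not tested.

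Within mural nuclei of the aging matrix, the alpha-1 genes and Adrb1 parted along the pericyte and smooth muscle lists. In the 10% with the most smooth muscle UMIs (Myh11, Acta2, Tagln, Myocd, Cnn1 and Lmod1) Adra1a was at 285, 170 and 184 CPM with suffixes 1, 2 and 3, against 127, 41.0 and 51.0 in the remaining mural nuclei. Adra1b was at 71.2 CPM with suffix 1 and 38.3 with suffix 3, against 29.4 and 11.001 in the remaining nuclei. Adra1a and Adra1b were thus higher on the smooth muscle side, with ratios of 2.25 to 4.14 for Adra1a and 2.42 and 3.48 for Adra1b, and no interval reached 1. Adrb1 was lower there in every library, at 0.354 (0.128 to 0.785), 0.203 and 0.244 of the rest. Adrb3 had 0 UMIs in those nuclei with suffixes 1 and 2, where Adra1a had 112 and 38. The remaining mural nuclei held 50 and 23 Adrb3 UMIs, and the upper limits of the ratio were 0.822 and 1.29. With suffix 2 the 0 therefore does not show a lower level.

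On the pericyte side (Rgs5, Abcc9, Kcnj8, Vtn and Higd1b) the order was the opposite. Adrb1 was at 84.4, 156 and 83.3 CPM in the top 10% with suffixes 1, 2 and 3, against 34.6, 90.6 and 36.3 in the rest, ratios of 2.44 (1.72 to 3.41), 1.73 (1.18 to 2.47) and 2.30 (1.47 to 3.50). Adra1a had 1, 4 and 7 UMIs there, at 1.76, 16.1 and 18.2 CPM against 160, 62.5 and 73.0. Adra1b had 1 UMI with suffix 1 and 0 with suffix 3. Adrb3 was low on this side too, with 1 and 2 UMIs with suffixes 1 and 2. Its ratios there were 0.145 (0.0036 to 0.848) and 0.624 (0.0709 to 2.55). Pericyte-side nuclei were deeper than the rest, with medians of 2614 against 1855.5, 3440 against 2146.5 and 4386 against 2373 UMIs for suffixes 1, 2 and 3. On the smooth muscle side they were 1889 against 1909.5, 2559 against 2199.5 and 2529 against 2442. The first matrix had too few mural nuclei (617) for this split, and what part depth has in these differences was not tested.

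**Figure D4:**
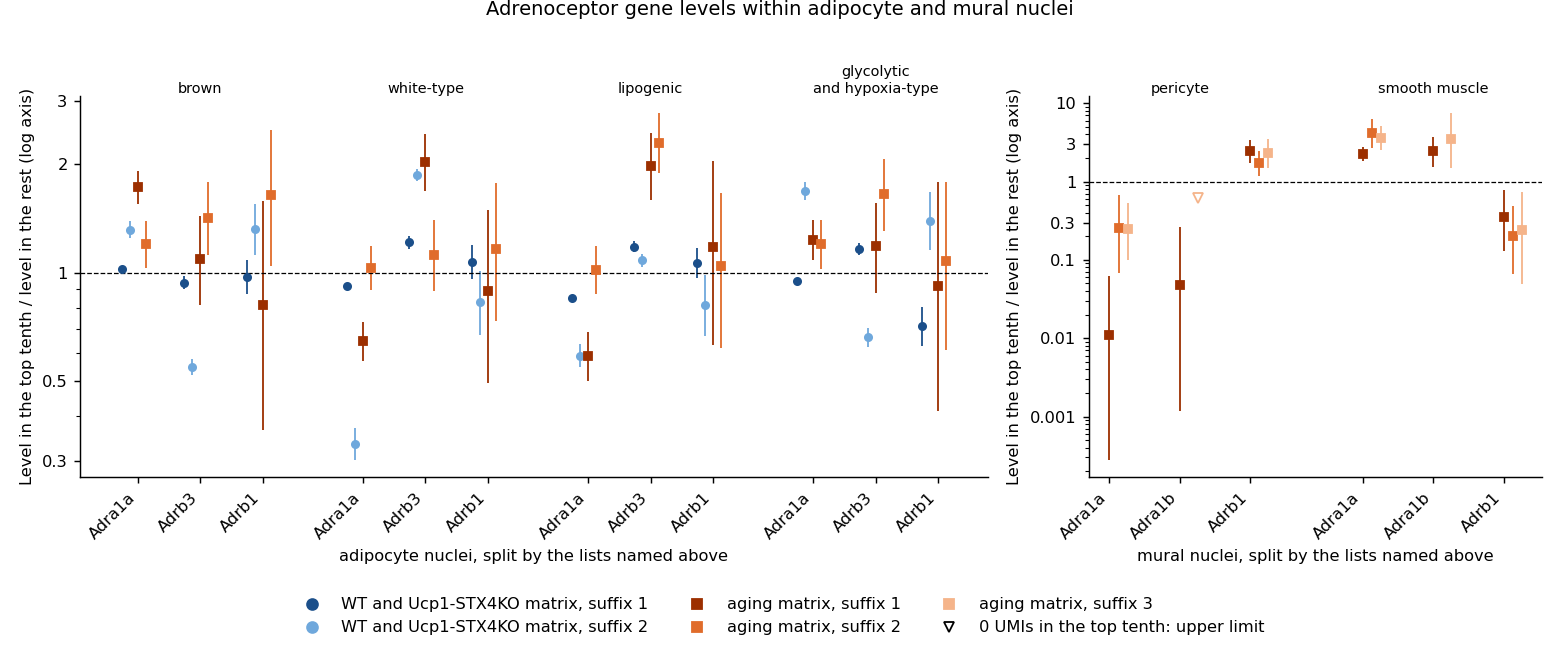
Ratio of the level in the 10% of nuclei with the most UMIs of a list to the level in the remaining nuclei of the same library (log axes, exact 95% intervals), for adipocyte nuclei on the left and mural nuclei of the aging matrix on the right. Adra1a and Adra1b lie above 1 for the smooth muscle list (2.25 to 4.14) and below it for the pericyte list, and Adrb1 the reverse.

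Adrenergic signaling genes were taken from a fixed list, with 47 given here, of which 44 had enough UMIs in each matrix. The list holds genes downstream of the receptors, genes of receptor desensitization, and genes of noradrenaline synthesis, transport and breakdown. In adipocyte nuclei of the first matrix 5 of them were called higher and 15 lower, and in the aging matrix 8 were higher and 4 lower, beside the shares of all genes given above. The median ratio of the list was 0.831 in both matrices, below the 0.935 and 1.04 over all genes tested. Among the Gs and cAMP genes, Gnas (the Gs alpha subunit) had adipocyte ratios of 3.55 in the WT and Ucp1-STX4KO matrix and 4.81 in the aging matrix, and Prkar2b (a regulatory subunit of protein kinase A) 3.85 and 19.4. Prkaca, a catalytic subunit of that kinase, was called higher in the aging matrix alone, with a ratio of 4.75 against 2.34 in the first matrix. Adcy7 (0.0374 and 0.357) and Prkar1b (0.133 and 0.394) were called lower in both. None of the 5 Gi genes was called higher, beside 5.8% and 10.5% of all genes in the first and aging matrices, too few genes to read as a trait. In the first matrix 2 of them were called lower, beside 22.6% of all genes, and in the aging matrix 1, beside 10.9%. Gnai2 was lower in both, at 0.233 and 0.327.

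Of the 13 Gq and calcium genes, 5 were called lower and none higher in the first matrix, beside 22.6% and 5.8% of all genes. In the aging matrix 1 was lower and 2 were higher, beside 10.9% and 10.5% of all genes, the higher ones being Plcb3 (a phospholipase C, 2.51) and Itpr2 (a calcium release channel, 3.66, and 2.84 in the first matrix). Itpr3 was lower in both, at 0.0395 and 0.288. The 6 desensitization genes stand beside the same shares of all genes. In the first matrix 1 of them was called higher and 3 lower, with a median ratio of 0.407. In the aging matrix 1 was higher and none lower, with a median of 0.829. The higher gene was Grk3, a kinase that desensitizes receptors, at 2.63 and 8.41. In the noradrenaline group Slc22a3, an extraneuronal transporter of the amine (5.01 and 6.65), and Maob, a monoamine oxidase (3.65 and 9.98), were higher in both matrices. Th, Dbh and Slc6a2, which serve synthesis and neuronal uptake, had too few UMIs to be tested, with 0, 1 and 6 in adipocyte nuclei of the first matrix and 3, 1 and 3 in those of the second.

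**Figure D5:**
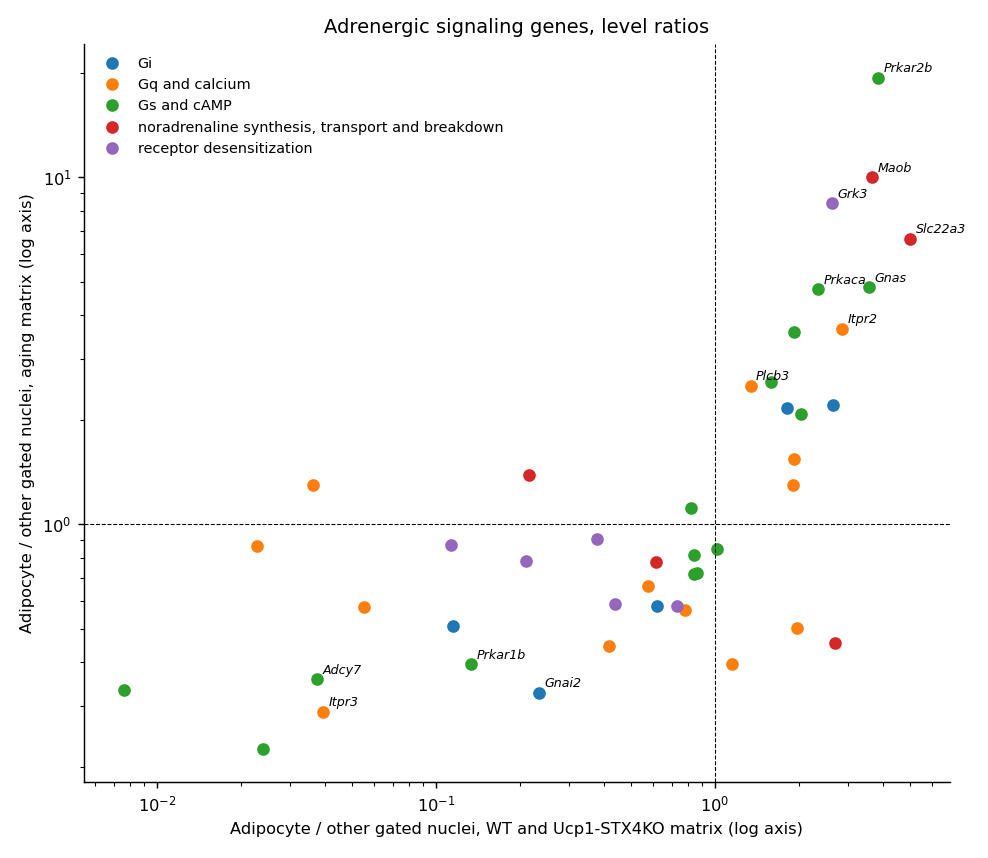
CPM ratio of adipocyte to all other typed nuclei for the signaling genes with at least 20 UMIs in both matrices (log axes), coloured by role, with dashed lines at 1. Named genes were called higher in at least 1 matrix or lower in both. Prkar2b (3.85 and 19.4) and Maob (3.65 and 9.98) lie toward the upper right, Itpr3 (0.0395 and 0.288) toward the lower left.

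Across the 8 cell types of the first matrix, the genes whose log2(CPM + 1) most resembled a receptor gene, of 13232 with at least 200 UMIs, were Acot11, 1190005I06Rik and Glt1d1 for Adra1a (Pearson r of 0.988, 0.985 and 0.985). For Adrb3 they were A830018L16Rik, Acaca and Ctcflos (0.991, 0.990 and 0.989), and for Adrb1 Adcy3, Cdc20b and Uvssa (0.972, 0.970 and 0.963). Csrnp2, Tm2d1 and D130017N08Rik came first for Adra1d (0.987, 0.983 and 0.973). Adra1a and Adrb3 had an r of 0.852 with each other, and Adrb1 and Adrb3 of 0.594. These values describe 8 points that share libraries and depth.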

How the data were processed

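Nuclei of iBAT were sorted and profiled with the 10x Genomics 3′ v3.1 assay. Against mm10, the authors ran Cell Ranger 6.1.2 and deposited raw UMI counts per gene and nucleus in 2 matrices, each pooling its libraries. The methods name a forced cell number of 10000, which each aging library holds, whereas the first matrix holds 11201 and 9106. The submitters' notes also name Seurat 4.1.0. The annotation release and the treatment of intronic reads are not given in the sources used here. The receptor genes, marker lists and signaling list were chosen with earlier results of these data known, and the scoring rule of the gate was set after the data had been seen.

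Nuclei with at least 200 UMIs and 100 genes were kept. The stated upper limits of 2000 UMIs and 3000 genes would leave 2763 nuclei of the first matrix and were used only as an alternative. Libraries hold 14486189 to 76195924 UMIs. Each nucleus was assigned to the marker list whose multinomial profile was most likely, starting from up to 40 seed nuclei per list (all nuclei raised for adipocyte markers alone in the case of adipocytes), with 5 rounds of re-estimation, a posterior above 0.95 and at least 2 own markers. Types of at least 50 nuclei are reported, and B lymphocyte, dendritic and lymphatic endothelial nuclei were fewer. No doublet caller was used. Nuclei under the posterior or own-marker limit were left untyped, which does not screen out doublets. Leaving out the 8% with the most UMIs was an alternative. UMIs were summed per type and library, and a count of 0 was given the limit of 3 counts. Each matrix is 1 pooled sample, so no p-value was computed. The calls and the gate were tested on simulated data. The named genes are the 8 receptor genes, the 3 genes most like each with at least 200 UMIs, and the signaling list, of which 1 item is not reported here. Gene positions are from GENCODE M21 (GRCm38), matched by Ensembl identifier. Python 3.11.15, numpy 2.4.6, scipy 1.17.1, pandas 2.3.3 and, for the graph clusters, scanpy 1.11.5 and leidenalg 0.10.2 were used.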

Additional observations from a re-analysis of the deposited data

How the results depend on the processing

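The alternatives were chosen with earlier results known, and the values below are CPM ratios to all other typed nuclei unless stated otherwise. No paired analysis was possible because there is 1 library per condition and no barcode suffix is tied to a sample. With 1 library alone, Adra1a in adipocyte nuclei gave 3.07 and 3.78 (first matrix, 6.03 pooled) and 14.2, 18.2 and 32.7 (aging, 21.7 pooled). Adrb3 in adipocyte nuclei gave 2.19 and 5.34 (3.28 pooled) and 26.5, 14.6 and 34.8 (21.2 pooled). In aging mural nuclei Adrb1 gave 1.90, 4.61 and 7.95 (3.76 pooled), and Adra1b 3.09 with suffix 2 and 5.66 with suffix 3 (8.80 pooled). Graph clusters gave 4.45 for Adra1a and 2.38 for Adrb3 in the first matrix and 18.9 for Adrb3 in the aging matrix. The mean of per-nucleus CPM gave 8.60 and 25.5 for Adra1a, 3.12 and 24.6 for Adrb3, and 4.29 for mural Adrb1. The whole stated filter leaves no nucleus of suffix 1 of the first matrix. It gave 4.91 and 24.9 for Adra1a, 3.62 for Adrb3 in the first matrix, and 5.00 and 13.1 for mural Adrb1 and Adra1b in aging nuclei. It also turned the adipocyte ratio of Adrb1 in the first matrix from 2.20 to 0.811 (0.369 to 1.60) on 10 UMIs, and the cause was not tested. Without the 8% of nuclei with the most UMIs, Adra1a gave 7.52 and 26.1, Adrb3 3.48 and 26.3, and aging mural Adra1b 11.8. The stricter gate gave 23.7 for aging Adrb3. With no UMI minimum, 6 receptor genes rather than 3 were called higher in a type of the first matrix, since genes with 2 or 3 UMIs then count. Graph clusters called 2 in that matrix, Adra1a and Adra1b, so the call of Adrb3 in adipocyte nuclei was lost there, although its pooled ratio was 2.38. The ratios of Adra1a and Adrb3 in adipocyte nuclei were above 2 under every alternative in both matrices, as did the mural ratio of Adra1b in the aging matrix. Among all other values and alternatives, 50 stayed within the counting interval, 23 moved beyond it, and 1, the Adrb1 value above, reversed. The 50 include ratios with no UMI minimum, a setting that cannot change them. The 23 include shares of nuclei with a UMI, which thinning lowers.

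The alpha-2 genes had the fewest UMIs, 2 to 29 each in typed nuclei of a matrix, and the part of depth in this was not tested. Without replicate libraries, intervals hold counting error alone, and differences between suffixes cannot be told apart from genotype, age, handling or depth.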

Other observations

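Macrophage nuclei with suffix 2 of the WT and Ucp1-STX4KO matrix carried more Adra1a per Adrb3 than adipocyte nuclei of their own library. They held 454 Adra1a and 319 Adrb3 UMIs, or 1.42 (1.23 to 1.65) Adra1a UMIs per Adrb3 UMI, against 0.502 in adipocyte nuclei. Other types of that library lay between 0.182 in Schwann and 0.672 in T lymphocyte nuclei. With suffix 1 the macrophage value was 3.60 (2.52 to 5.25), beside 4.26 in adipocyte nuclei. The 10 leading genes of the macrophage nuclei, with the suffixes of this matrix pooled, were Atp6v0d2, Gpnmb, Cd84, Mrc1, St18, Entpd1, Myo1f, Syk, Mctp1 and Lgals3.

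Slc18a2, which encodes the vesicular monoamine transporter of aminergic neurons, had 242 UMIs in adipocyte nuclei of the first matrix (2.42 CPM, a ratio of 2.68 to other typed nuclei) and 7 in those of the aging matrix (1.07 CPM, 0.454), a pair of values on opposite sides of 1 that was not tested. Both ratios are pooled over libraries. The gene was not called higher in the first matrix, so its ratio was under 2 in at least 1 library there.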
